A study of Mus musculus with 8 samples.

Results

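Ctla2a and Ctla2b are a pair of neighbouring mouse genes for small inhibitors of cysteine proteases, described here in platelet RNA. They were taken by their symbols in the deposited gene tables, 2 of 55487 genes, and both were among the 7362 genes with enough counts to be tested. The pair was selected on the measured level of Ctla2a in these libraries, one of the highest of all transcripts, so the levels, shares and ranks below are a description with no test. The comparison between genotype labels did not enter that choice and is tested.

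RNA was sequenced from platelets of 4 male mice labelled Dnmt3a+/-, heterozygous by that label for the gene of the DNA methyltransferase DNMT3A, and of 4 male mice labelled WT. All 8 mice were 13 weeks old, the labels call the WT mice littermates, and each mouse gave 1 library. Platelets were spun out of heart blood, and beads against Ter119 and CD45 took away red cells and leukocytes. The kind of allele and the cells that carry it were not given in the sources used here.

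CTLA-2 proteins resemble the propeptide of cathepsin L-like proteases, the segment that keeps the uncleaved enzyme inactive, but they have no protease domain of their own. Ctla2a is known to inhibit cathepsin L, a lysosomal cysteine protease. Both genes were first described in activated mouse T cells and mast cells, and CTLA-2 alpha is also known from the pregnant uterus. Platelets have no nucleus and inherit most of their RNA from megakaryocytes.

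Both genes lie on the minus strand of chromosome 13, 36707 bases apart, in the GENCODE M21 annotation of GRCm38. Ctla2a (ENSMUSG00000044258) covers chr13:60934155-60936625 and Ctla2b (ENSMUSG00000074874) covers chr13:60895350-60897447. Exons 3 and 4 of the isoforms Ctla2a-201 and Ctla2b-201, which are coding, have the same length of 123 bases in both genes and are nearly the same in sequence. They are shown because this likeness bears on how reads can be told apart, and capitals mark the bases that differ between the genes.
Ctla2a exon 3, chr13:60935547-60935669: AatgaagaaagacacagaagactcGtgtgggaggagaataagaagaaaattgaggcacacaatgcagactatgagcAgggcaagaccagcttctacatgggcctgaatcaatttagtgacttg
Ctla2b exon 3, chr13:60896238-60896360: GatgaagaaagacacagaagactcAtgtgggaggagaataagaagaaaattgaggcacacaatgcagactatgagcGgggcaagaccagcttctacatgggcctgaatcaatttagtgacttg
Ctla2a exon 4, chr13:60935330-60935452: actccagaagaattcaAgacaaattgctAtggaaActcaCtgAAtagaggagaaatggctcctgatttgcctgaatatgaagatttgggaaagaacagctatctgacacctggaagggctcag
Ctla2b exon 4, chr13:60896021-60896143: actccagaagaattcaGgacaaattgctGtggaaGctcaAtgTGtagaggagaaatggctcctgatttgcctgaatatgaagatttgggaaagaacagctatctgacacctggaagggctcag
Exon 3 was identical at 120 of 123 bases and exon 4 at 117 of 123. Exon 3 of both genes ends in one unbroken run of shared bases, and the differences of exon 4 all lie in its first part. The annotated coding sequence was 411 bases long in Ctla2a and 339 bases in Ctla2b, with 13 mismatches over the part they share.

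The sequence before the start sites was alike as well. The 250 bases before each RefSeq start (GRCm38.p6, minus strand) are shown because RNA of both genes was found in every library at very different levels. Capitals mark bases that differ or have no partner in the alignment.
Ctla2a, chr13:60936626-60936875: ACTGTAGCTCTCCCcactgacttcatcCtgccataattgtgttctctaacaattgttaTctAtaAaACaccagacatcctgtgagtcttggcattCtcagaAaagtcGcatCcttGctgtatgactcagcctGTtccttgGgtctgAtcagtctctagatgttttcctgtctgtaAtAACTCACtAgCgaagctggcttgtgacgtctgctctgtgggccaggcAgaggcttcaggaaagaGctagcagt
Ctla2b, chr13:60897448-60897697: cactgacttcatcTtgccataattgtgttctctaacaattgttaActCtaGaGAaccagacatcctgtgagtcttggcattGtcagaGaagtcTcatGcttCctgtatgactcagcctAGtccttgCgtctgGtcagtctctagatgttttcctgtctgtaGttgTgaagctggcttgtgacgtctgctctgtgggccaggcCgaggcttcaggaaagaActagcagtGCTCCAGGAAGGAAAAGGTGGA
In the alignment 209 bases were identical, 19 were mismatched and 22 of each gene had no partner. Motifs were counted on both strands. The letters TGACGT, bound by CREB and ATF factors, occurred 1 time before each gene and in 6.47% of 32851 mouse promoters of the same length. The GATA motif GATAA occurred 1 time before Ctla2a and 0 times before Ctla2b, and 22.6% of promoters held it. The ETS motif CAGGAAG occurred 0 times before Ctla2a and 2 times before Ctla2b, against 10.8% of promoters with at least 1. The RUNX motif TGTGGT occurred in neither window, and 14.0% of promoters held it. TATAAA occurred 1 time before Ctla2a and 0 times before Ctla2b, and 12.4% of promoters held it. Each window held 3 CG dinucleotides, against a median of 6 over all promoters, and 62.2% of promoters held more. These are matches of letters and say nothing of binding.

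Total counts ran from 15620972 to 22160394 in the libraries labelled Dnmt3a+/- and from 15185218 to 17398666 in the WT libraries. Mitochondrially encoded genes were taken as those with a symbol starting mt-, and no other gene model was counted with them. They took 17.6% to 19.0% of counts in the libraries labelled Dnmt3a+/-. In 3 WT libraries they took 16.7% to 17.8%, against 24.8% in WT replicate 3. Dnmt3a itself was at 9.96, 11.5, 24.2 and 19.5 CPM (counts per 1000000 after TMM scaling) in replicates 1 to 4 labelled Dnmt3a+/-, and at 21.1, 22.1, 19.8 and 18.2 CPM in WT. Replicates 3 and 4 labelled Dnmt3a+/- therefore did not show a low Dnmt3a level, and every difference below is between labels. The summed level of 12 platelet and megakaryocyte markers was 50321 to 52729 TPM (transcripts per 1000000, corrected for gene length) in the libraries labelled Dnmt3a+/- and 43650 to 52779 TPM in WT, led by Ppbp, Pf4 and Itga2b.

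In TPM, Ctla2a had the highest level of any transcript not encoded by mitochondria in all 8 libraries. It was at 62448, 62228, 68933 and 65265 TPM in replicates 1 to 4 labelled Dnmt3a+/-, against 59610, 70933, 60448 and 63670 TPM in WT replicates 1 to 4. The highest and the lowest value were both from WT mice, and the labels overlapped. The mean was 64718 ± 3131 TPM in the libraries labelled Dnmt3a+/- and 63665 ± 5152 TPM in WT (SD, n = 4 each). In RNA from a whole platelet preparation, fewer cells of a type and less RNA per cell cannot be told apart.

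Ctla2b was abundant too, though on average Ctla2a was 14.3-fold higher. It was at 5767, 4597, 3697 and 4877 TPM in replicates 1 to 4 labelled Dnmt3a+/-, against 4868, 3749, 3942 and 4425 TPM in WT replicates 1 to 4. Replicate 1 was the highest library under each label, the lowest was replicate 3 labelled Dnmt3a+/-, and the labels overlapped. The mean was 4735 ± 853 TPM in the libraries labelled Dnmt3a+/- and 4246 ± 503 TPM in WT (SD, n = 4 each). The lowest Ctla2a value was 10.3 times the highest Ctla2b value, so the order of the pair was the same in every library.

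**Figure D1:**
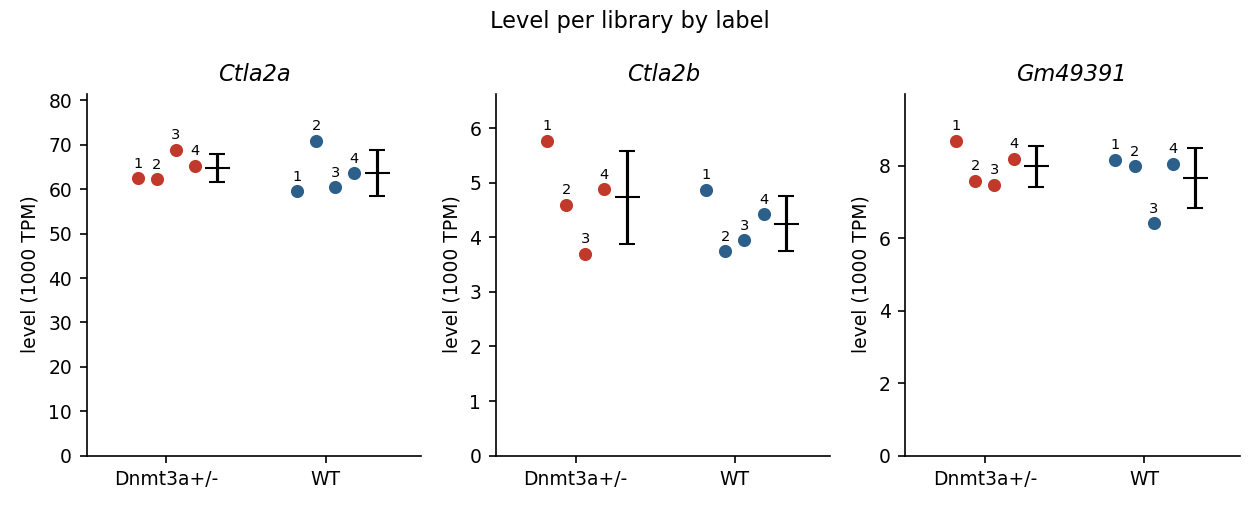
Level in 1000 TPM of Ctla2a, Ctla2b and the overlapping gene model Gm49391 in each library, numbered by replicate, with the 4 libraries labelled Dnmt3a+/- in red at the left and the 4 WT libraries in blue. Black marks give the mean and SD of each label, each axis starts at 0 and has its own scale, and the labels overlap in every panel.

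The plot of level per library shows how narrow the spread of Ctla2a is beside that of Ctla2b. As a share of all counts, Ctla2a took 3.23%, 3.18%, 3.55% and 3.36% in replicates 1 to 4 labelled Dnmt3a+/-, and 3.08%, 3.62%, 3.31% and 3.26% in WT. Ctla2b took 0.368%, 0.290%, 0.229% and 0.310% in replicates 1 to 4 labelled Dnmt3a+/-, and 0.310%, 0.232%, 0.267% and 0.280% in WT. These shares rest on 492924 to 744360 counts of Ctla2a and 38108 to 68617 counts of Ctla2b per library. The 95% Wilson interval was 3.22% to 3.24% for Ctla2a and 0.365% to 0.371% for Ctla2b in replicate 1 labelled Dnmt3a+/-. Such intervals cover counting error only and are far narrower than the spread between mice.

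In the order of mean TPM over the 8 libraries, Ctla2a stood at rank 2. The ribosomal RNA genes of the mitochondrion, mt-Rnr1 at 69480 ± 6793 TPM and mt-Rnr2 at 63527 ± 3445 TPM, stood on either side of Ctla2a at 64192 ± 3987 TPM (SD, n = 8). By library Ctla2a ranked from 1 to 3 in TPM and from 3 to 4 in counts. By label, mt-Rnr1 was at 74810 ± 3560 TPM in the libraries labelled Dnmt3a+/- and 64151 ± 4389 TPM in WT (SD, n = 4 each). Its mean was above that of Ctla2a under both labels. It was above Ctla2a in 6 of 8 libraries, among them all 4 labelled Dnmt3a+/-. These values are given as a description only. mt-Rnr2 was above Ctla2a in 3 of 8 libraries, and the difference was not tested. Next came Tmsb4x, which encodes the actin-binding peptide thymosin beta 4, at 45461 ± 3866 TPM (SD, n = 8), and its highest library at 50523 TPM was below the lowest Ctla2a library. Mean Ctla2a was 3.03 times Ppbp, a chemokine of the alpha granule, and 3.55 times Pf4, platelet factor 4.

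Ctla2b stood at rank 32. Above it were mt-Co3, a subunit of cytochrome oxidase, at 4725 ± 2084 TPM and Clec1b, the platelet receptor CLEC-2, at 4676 ± 453 TPM, against 4490 ± 699 TPM for Ctla2b (SD, n = 8). Below it were Actg1, cytoplasmic gamma actin, at 4438 ± 578 TPM and Nptn, the adhesion protein neuroplastin, at 4431 ± 736 TPM (SD, n = 8). In single libraries, mt-Co3 and Actg1 were above Ctla2b in 3 of 8, and Clec1b and Nptn in 5 of 8. Differences between these neighbours and Ctla2b were not tested. By library Ctla2b ranked from 28 to 38 in TPM and from 38 to 73 in counts.

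**Figure D2:**
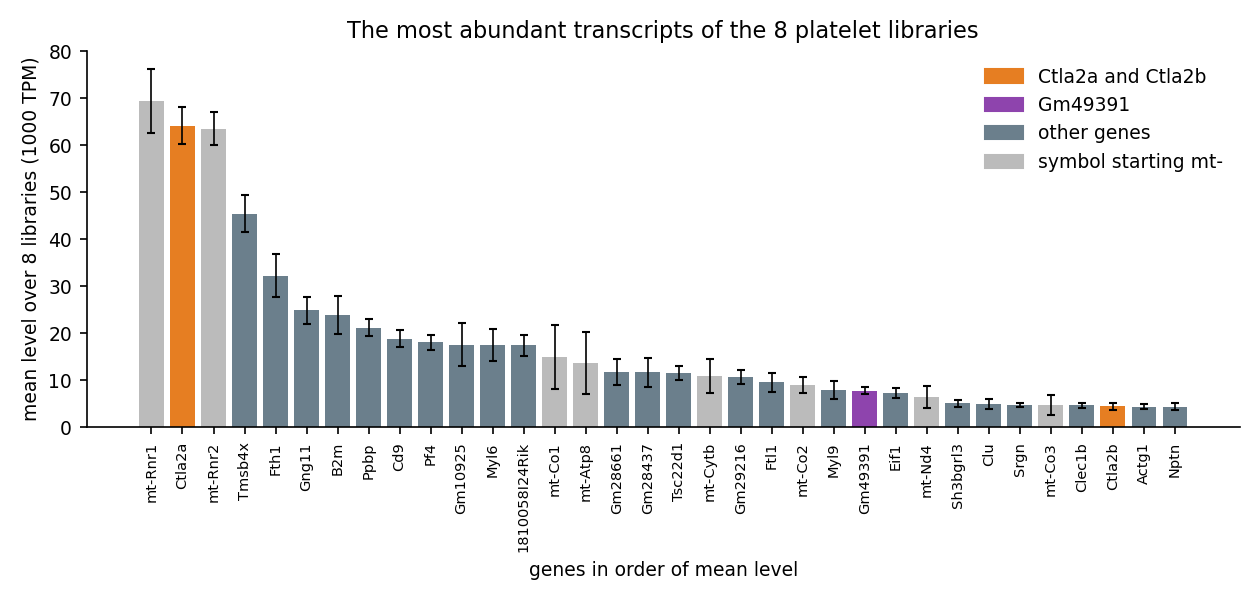
Mean level in 1000 TPM over the 8 libraries of the 34 genes with the highest means, with SD bars and an axis from 0. Ctla2a (orange, rank 2) stands among mitochondrially encoded ribosomal RNAs (grey), Gm49391 (purple) is at rank 24 and Ctla2b (orange) at rank 32.

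The bar plot of the most abundant transcripts also holds a gene model of the same locus, Gm49391, at 7821 ± 679 TPM (SD, n = 8). In GENCODE M21 its 3 transcripts run over chr13:60895350-60936571 and join first exons of Ctla2a to last exons of Ctla2b. The models Gm49392 (chr13:60842621-60896894) and Gm49393 (chr13:60853230-60935590) overlap exons of Ctla2b and of Ctla2a to a smaller extent. The deposited tables list all 5 as separate genes.

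Gm49391 was above Ctla2b in every library. It was at 8687, 7582, 7479 and 8192 TPM in replicates 1 to 4 labelled Dnmt3a+/-, against 8160, 7989, 6419 and 8057 TPM in WT replicates 1 to 4. WT replicate 3, the library with the most mitochondrial counts, was the lowest, and the labels overlapped. Gm49392 and Gm49393 were minor, at 3144 to 7568 and 251 to 1189 counts per library.

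Much of Ctla2b cannot be told from these models by sequence. Of the annotated exon bases of Ctla2b, 60.1% are also exons of Gm49391 and 22.6% also of Gm49392, while 16.3% of Ctla2a exon bases are also exons of Gm49391. Of all stretches of 100 bases in the isoform Ctla2b-201 76.9% occur without change in Gm49391 and 0% in Ctla2a. The share of Ctla2b-201 found in Ctla2a was 3.78% for stretches of 75 bases and 11.9% for stretches of 50 bases. For Ctla2a-201 the share that occurs in any other model of the locus was 18.8% for stretches of 100 bases. At 50 bases these shares with any other model were 86.1% for Ctla2b-201 and 25.0% for Ctla2a-201. Ctla2a-201 is the longest annotated Ctla2a isoform, at 1373 bases against 842 for Ctla2b-201, and 874 of them are its last exon. Yet the effective length implied by counts and TPM was shorter for Ctla2a than for Ctla2b. The shares of Ctla2a may therefore be too low for the isoforms that were counted. Shares of its other isoforms were not computed. The read length was not given in the sources used here, and how the counting divided shared reads among the models was not tested.

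**Figure D3:**
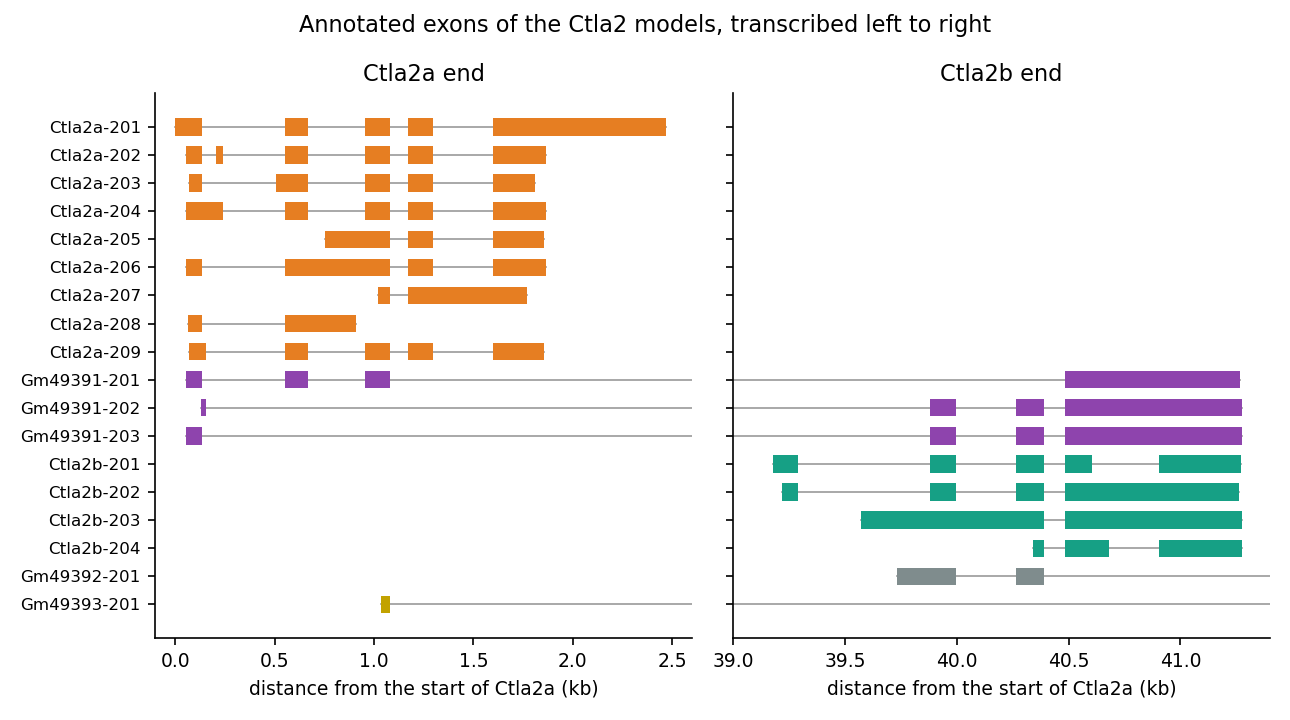
Exons (boxes) and introns (lines) of each annotated transcript of Ctla2a, Gm49391, Ctla2b, Gm49392 and Gm49393, against distance in kb from the start of Ctla2a. Gm49391 has exons at both ends, and at the Ctla2b end they fall on exons of Ctla2b.

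The map of annotated exons shows where the models coincide, and the counts show how they were divided. Of the counts of the 5 models, Ctla2a took 73.8% to 79.6% in the libraries labelled Dnmt3a+/- and 74.6% to 79.1% in WT. Ctla2b took 5.13% to 8.43% in the libraries labelled Dnmt3a+/- and 5.06% to 7.52% in WT. Gm49391 took 14.4% to 17.2% in the libraries labelled Dnmt3a+/- and 14.1% to 17.3% in WT, so it held more of the locus than Ctla2b did. Together the 5 models took 4.35% ± 0.130 of all counts in the libraries labelled Dnmt3a+/- and 4.30% ± 0.198 in WT (SD, n = 4 each).

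The ratio of Ctla2a to Ctla2b differed between the deposited tables by a nearly constant factor. In estimated counts it was 8.76, 10.9, 15.5 and 10.8 in replicates 1 to 4 labelled Dnmt3a+/-, against 9.93, 15.6, 12.4 and 11.6 in WT. In TPM it was 10.8, 13.5, 18.6 and 13.4 in replicates 1 to 4 labelled Dnmt3a+/-, against 12.2, 18.9, 15.3 and 14.4 in WT. TPM divides by length, and the ratio was higher in TPM than in counts in every library. The ratio of effective lengths of Ctla2a over Ctla2b that the tables imply was 0.808 to 0.831. Replicate 3 labelled Dnmt3a+/- and WT replicate 2 were highest, and replicate 1 was lowest under each label.

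The mean ratio in TPM was 14.1 ± 3.28 in the libraries labelled Dnmt3a+/- and 15.2 ± 2.78 in WT (SD, n = 4 each), and in counts it was 11.5 ± 2.84 in the libraries labelled Dnmt3a+/- and 12.4 ± 2.39 in WT. The difference in mean log2 ratio was -0.12 in both tables and was smaller than the spread between mice (exact two-sided permutation test over 70 arrangements, p = 0.6 in each table, adjusted p = 0.6 over 5 tests, smallest possible p = 0.0286). Counting Gm49391 with Ctla2b brought the TPM ratio to 4.32 to 6.17 in the libraries labelled Dnmt3a+/- and 4.58 to 6.04 in WT. The size of the ratio therefore depended on whether Gm49391 was counted with Ctla2b, while Ctla2a was the larger side in every library either way. Of the exon bases of Gm49391, 75.1% are also exons of Ctla2b and 24.9% also of Ctla2a. Counting Gm49391 with Ctla2a was not tried.

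**Figure D4:**
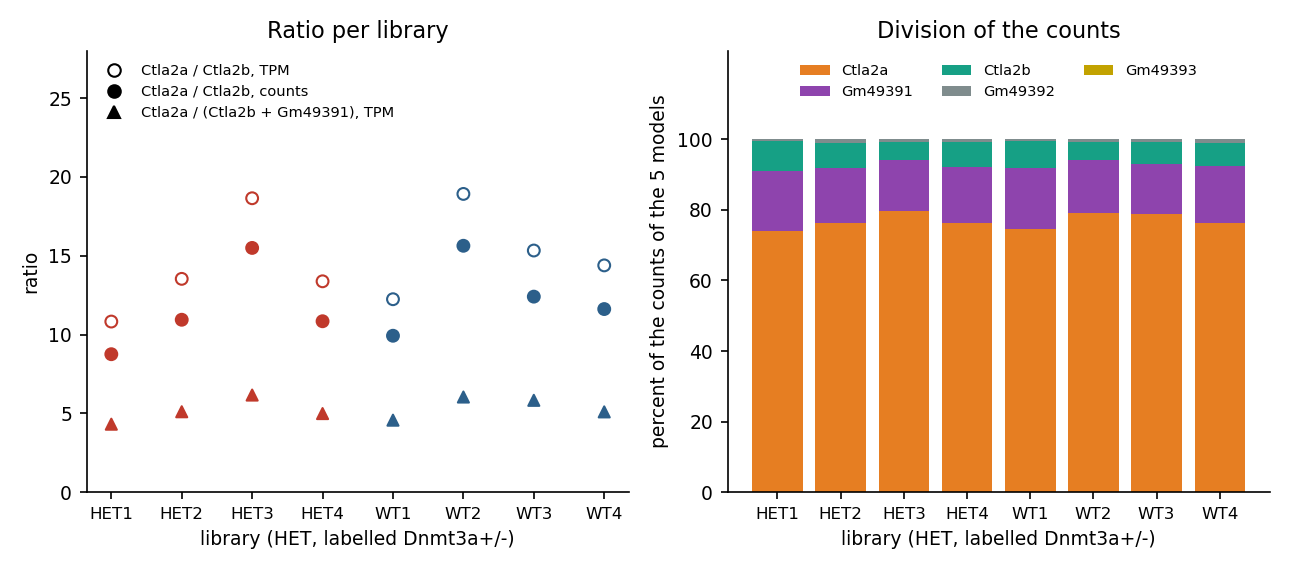
Left, ratio of Ctla2a to Ctla2b per library in TPM (open circles) and counts (filled circles) and of Ctla2a to Ctla2b plus Gm49391 in TPM (triangles), with libraries labelled Dnmt3a+/- (HET, red) left of WT (blue). Right, percent of the counts of the 5 gene models given to each per library, where Ctla2a holds between 73.8% and 79.6%.

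The plot of ratios shows the TPM ratio ranging from 10.8 to 18.9, and the ratio with Gm49391 added to Ctla2b moving over a smaller range. After TMM scaling Ctla2a was at 33246, 31239, 35823 and 32306 CPM in replicates 1 to 4 labelled Dnmt3a+/-, against 31397, 33876, 36163 and 32268 CPM in WT. WT replicate 3 had the highest Ctla2a value in CPM but the second lowest in TPM. Ctla2b was at 3796, 2855, 2312 and 2978 CPM in replicates 1 to 4 labelled Dnmt3a+/-, against 3162, 2167, 2914 and 2777 CPM in WT. On this scale too the labels overlapped for both genes.

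Neither gene differed between the labels beyond the spread between mice. In edgeR's quasi-likelihood test over all 7362 genes, 0 of the 2 genes passed an adjusted p of 0.05, and 0% of all genes did. At an unadjusted p under 0.05 there were likewise 0 of the 2, against 4.92% of all genes, 1.73% higher and 3.19% lower. The CPM of the labels overlapped for 2 of the 2, while in 2.54% of all genes they did not overlap. The fitted change was above 0 for 1 of the 2 and for 49% of all genes. The log2 fold change of Ctla2a, Dnmt3a+/- over WT, was -0.01 (SE 0.11, edgeR adjusted p = 0.998), a fold of 0.992 with a 95% interval of 0.843 to 1.17. For Ctla2b it was 0.12 (SE 0.16, edgeR adjusted p = 0.998), a fold of 1.08 with a 95% interval of 0.848 to 1.38. No difference was detectable, and changes within these intervals are not set apart from 0.

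Summing the rows that share sequence gave the same reading. Ctla2a plus Ctla2b had a fold of 0.999 (95% interval 0.852 to 1.17, edgeR adjusted p = 0.999). The 5 models summed had a fold of 1.00 (95% interval 0.859 to 1.17, edgeR adjusted p = 0.998). Gm49391 had a log2 fold change of 0.02 (SE 0.10, edgeR adjusted p = 0.998). Across all genes the median log2 fold change was -0.01 and the median size of a change was 0.15, and 348 genes had a smaller change than Ctla2a and 3105 a smaller one than Ctla2b.

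The pair differed in how steady they were from mouse to mouse. The SD of log2 CPM over the 8 libraries was 0.08 for Ctla2a and 0.25 for Ctla2b, against a median of 0.30 over all genes tested. Among the 165 genes at 1000 CPM or more, whose median was 0.17, Ctla2a had the 15th smallest SD and Ctla2b the 119th. For Ctla2b plus Gm49391 the SD was 0.14, and for the 5 models summed it was 0.06. The summed locus thus varied less than either gene, and the counting error of the Ctla2b count was at most 0.512% of its value.

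Over the mice, no correlation was detected between Ctla2a and Ctla2b. Their log2 CPM had a Pearson r of -0.37 (exact permutation p = 0.372) and a Spearman rho of -0.26 (exact permutation p = 0.536) over 8 libraries, with an adjusted p of 0.6 over 5 tests. Without the libraries farthest from the median of Ctla2a, replicate 3 of each label, r was -0.28. Ctla2b and Gm49391 had r = 0.82 (exact permutation p = 0.0120, adjusted p = 0.0598 over 5 tests) and rho = 0.74 (exact permutation p = 0.0458). The adjusted p was thus above 0.05 with all 8 libraries. The libraries farthest from the median of Ctla2b were replicate 1 labelled Dnmt3a+/- and WT replicate 2. Without them r was 0.56 over 6 libraries (exact permutation p = 0.258). Leaving out extremes narrows the range, which tends to lower r, so this value decides little. Ctla2a and Gm49391 had r = -0.34 (exact permutation p = 0.427), and r = 0.05 without replicate 3 of each label (exact permutation p = 0.928). Counts of models that share sequence are not independent of each other.

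Of 2570 genes at 10 CPM or more, those whose log2 CPM was most like Ctla2a over the 8 libraries were Fhl3, Eps15, Chchd2, Il21r and Snap47, with Pearson r of 0.92, 0.79, 0.78, 0.77 and 0.75. The gene at the 99th percentile of r had 0.63. For Ctla2b they were Cops3, Sdhaf2, Cd59a, Ghitm and Gyg, with r of 0.98, 0.95, 0.95, 0.92 and 0.92, and the 99th percentile was 0.86. The lists did not share a gene, and with 8 libraries they are a description only.

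The cysteine cathepsins, taken as a whole list, were far less abundant than Ctla2a in this platelet RNA. Of 10 cysteine cathepsins, 6 were tested and 0 passed. The fitted change was above 0 for 4 and below 0 for 2, with a median log2 fold change of 0.15. Ctsl, the gene of cathepsin L, was at 2.97 ± 2.39 TPM in the libraries labelled Dnmt3a+/- and 4.93 ± 2.09 TPM in WT (SD, n = 4 each), with a log2 fold change of -0.82 (SE 0.47, edgeR adjusted p = 0.998). Ctsz, a carboxypeptidase of the family, was its most abundant member at 318 ± 38.6 TPM in the libraries labelled Dnmt3a+/- and 299 ± 46.1 TPM in WT (SD, n = 4 each). Ctsb, cathepsin B, was at 31.8 ± 5.71 TPM in the libraries labelled Dnmt3a+/- and 33.6 ± 5.46 TPM in WT (SD, n = 4 each). Mean Ctla2a was 184 times the summed level of these 10 genes.

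The placental cathepsins, which lie on the same chromosome in a rodent-specific cluster, were not detected apart from 1 count. Of 9 in the tables, 8 had 0 counts in all 8 libraries, which allows up to 3 counts in each, and Ctsll3 had 1 count in all. Of 44 neighbouring genes on chromosome 13, which lie between 60422756 and 61861675, 36 had 0 counts in every library and 6 had at most 2 counts in any. The 2 with more were Dapk1, a death-associated protein kinase, with 495 to 926 counts, and 4930486L24Rik, whose coordinates overlap Gm49392 and Gm49393. That gene had 148, 357, 465 and 2049 counts in replicates 1 to 4 labelled Dnmt3a+/-, against 98, 68, 207 and 387 in WT, and the labels overlapped.

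Among other cathepsins and legumain, 3 of 5 were tested and 0 passed, with 2 fitted changes above 0, 1 below and a median log2 fold change of 0.02. Ctsd, the aspartic protease cathepsin D, was at 1615 ± 127 TPM in the libraries labelled Dnmt3a+/- and 1569 ± 235 TPM in WT (SD, n = 4 each). Ctsa and Lgmn were below 8 TPM in every library.

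Ctla2a also stood far above the other cysteine protease inhibitors. Of 20 cystatins and stefins, 3 were tested and 0 passed, 15 had 0 counts in all libraries, and mean Ctla2a was 117 times their summed level. Cst3, the secreted inhibitor cystatin C, was at 555 ± 40.0 TPM in the libraries labelled Dnmt3a+/- and 528 ± 49.5 TPM in WT (SD, n = 4 each). Cstb, the intracellular inhibitor cystatin B, was at 2.63 to 3.25 TPM in the libraries labelled Dnmt3a+/- and 0.45 to 1.84 TPM in WT. These Cstb values rest on only 3 to 25 counts per library. The log2 fold change of Cstb was 1.14 (SE 0.37), with an edgeR unadjusted p of 0.0104 and an edgeR adjusted p of 0.693. Over all genes tested, 4.92% had an unadjusted p under 0.05, and in 2.54% the CPM of the labels did not overlap. Cst7, cystatin F, was at 3.67 ± 1.17 TPM in the libraries labelled Dnmt3a+/- and 4.25 ± 1.86 TPM in WT (SD, n = 4 each).

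Calpains are calcium-dependent cysteine proteases of the cytosol. Of 16 calpain genes and calpastatin, 7 were tested and 0 passed, with 1 fitted change above 0, 6 below and a median log2 fold change of -0.11. Capns1, the small regulatory subunit, was at 518 ± 23.9 TPM in the libraries labelled Dnmt3a+/- and 533 ± 76.9 TPM in WT (SD, n = 4 each), followed by Capn3 and Capn2. Of 25 inhibitors of other proteases, 15 were tested and 0 passed, with 6 fitted changes above 0, 9 below and a median log2 fold change of -0.10. Serpinb6a, an intracellular serpin, was at 1238 ± 60.1 TPM in the libraries labelled Dnmt3a+/- and 1066 ± 118 TPM in WT (SD, n = 4 each), with a log2 fold change of 0.18 (SE 0.08, edgeR adjusted p = 0.987). Serpine2 and Slpi were next in level. Serpina1a, Serpinf2 and Serping1, plasma inhibitors made mainly in liver, had unadjusted p-values under 0.05 and log2 fold changes of -3.70, -3.66 and -1.43, with edgeR adjusted p-values of 0.693, 0.647 and 0.979.

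**Figure D5:**
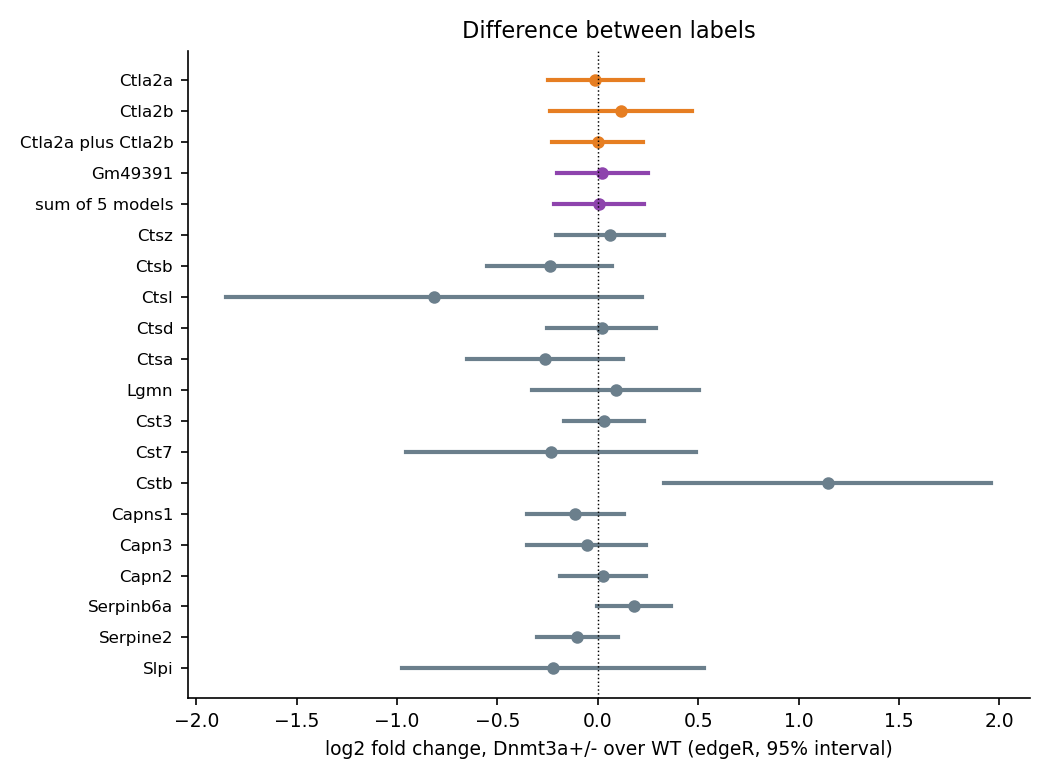
Log2 fold change of the libraries labelled Dnmt3a+/- over WT (points) with 95% intervals from edgeR, for the Ctla2 rows (orange and purple) and for the most abundant genes of the protease and inhibitor lists (grey). The Ctla2a interval runs from -0.25 to 0.22, and Cstb at 1.14, with 3 to 25 counts per library, is the shown gene farthest from 0.

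The plot of fold changes shows that the interval of each Ctla2 row included 0, and that the interval of Ctla2b, -0.24 to 0.47, was wider than that of Ctla2a. Summed over 10 markers, liver transcripts were at 2.94 to 88.0 TPM in the libraries labelled Dnmt3a+/- and 16.4 to 891 TPM in WT, and Serpina1a is on that list. Red cell transcripts, 8 markers led by Hba-a2, Hba-a1 and Hbb-bs, were at 7077 to 10966 TPM in the libraries labelled Dnmt3a+/- and 4836 to 46890 TPM in WT. Their part in the values of the plasma inhibitors was not tested.

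The cells in which the pair was first described left little RNA in these libraries. The summed level of 12 T cell markers was 4.36 to 7.79 TPM in the libraries labelled Dnmt3a+/- and 3.36 to 7.51 TPM in WT. Most of it was Trbc2, and 5 of the 12, with Cd3e and Cd3g among them, had 0 counts in all libraries. The summed level of 10 mast cell and basophil markers was 2.01 to 5.33 TPM in the libraries labelled Dnmt3a+/- and 3.51 to 5.98 TPM in WT. Most of it was Hdc, and 5 of the 10, with Fcer1a, Ms4a2 and Mcpt8 among them, had 0 counts in all libraries.

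Leukocyte, stem cell and endothelial markers were low beside Ctla2a as well, while the red cell sum given above reached 46890 TPM in 1 WT library. The leukocyte list, 12 genes led by Nkg7, summed to 14.3 to 20.5 TPM in the libraries labelled Dnmt3a+/- and 14.4 to 26.3 TPM in WT. Stem and progenitor markers, 10 genes led by Ly6a, summed to 6.14 to 12.5 TPM in the libraries labelled Dnmt3a+/- and 8.93 to 11.5 TPM in WT. Endothelial markers, 12 genes, summed to 247 to 284 TPM in the libraries labelled Dnmt3a+/- and 218 to 286 TPM in WT, nearly all of it Esam, which platelets also express. Mean Ctla2a was 248 times the endothelial sum and 11409 times the T cell sum.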

How the data were processed

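Platelet RNA of 8 mice was sequenced from stranded polyadenylated RNA libraries, per the labels' protocols. The authors deposited an expected count (estimated, written as whole numbers) and a TPM value per gene and library. The submitters' processing notes name build mm10 and the tools STAR, RSEM, cutadapt and DESeq2. Versions, annotation and strand setting were not given in the sources used here.

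Deposited counts were tested with edgeR 4.0.16 under R 4.3.3: TMM factors, filterByExpr (minimum count 10, minimum total 15), glmQLFit, glmQLFTest and Benjamini-Hochberg adjustment over 7362 genes at 0.05. Standard errors were derived from each F statistic. Ratios and correlations were compared with exact permutation tests over libraries (scipy 1.17.1). No pair of libraries agreed within sampling noise (chi-square of at least 12.3 per degree of freedom), and each counted as 1 replicate. Alternatives were other scaling factors and filters, DESeq2 1.42.0, limma 3.58.1 on log2 of TPM plus 1 or 0.1, a replicate block and leaving out each library. Coordinates come from GENCODE M21 and promoter sequences from RefSeq. The code was tested on simulated data.

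The genes, lists and tests were chosen with earlier results of these data known, and the locus sum and the ratio with Gm49391 after seeing the data. The fold change of Gm49391 and its correlations with Ctla2a and Ctla2b were not planned either. Named per list were the 3 genes highest in mean TPM, then the 5 genes most correlated with Ctla2a and with Ctla2b, and the genes next to them in level. Other marker lists are given by their sums and leading genes. Liver-made inhibitors and neighbouring genes were named after their values were seen.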

Additional observations from a re-analysis of the deposited data

Results flagged for a closer look

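Of 88 groups of 4 libraries examined, 2 held a library far from the other 3, where chance flags about 1 in 20 groups, or 4.4. WT replicate 3 had the lowest Gm49391 level, 6419 TPM, against 7989 to 8160 TPM in the other 3 WT libraries. In CPM the same library, at 6464, was above WT replicate 2 at 6374. The ratio of effective lengths of Ctla2a over Ctla2b was 0.831 in replicate 3 labelled Dnmt3a+/-, the highest of its label.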

How the results depend on the processing

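No alternative called Ctla2a, Ctla2b, their sum or the sum of the 5 models, and signs of values this near 0 changed with the settings. The log2 fold change of Ctla2a was 0.0078 with upper-quartile factors, 0.0043 without a filter and 0.026 with limma at either pseudocount, and -0.044 to 0.030 when each library was left out in turn. Those of Ctla2a plus Ctla2b were 0.017, 0.014 and 0.034 under the same settings, and -0.023 to 0.039 with 1 library left out. Ctla2b was at -0.012 to 0.23, below 0 only without replicate 1 labelled Dnmt3a+/-. Gm49391 was at -0.033 to 0.061 with 1 library left out, lowest without that same library and -0.0030 without WT replicate 2, and at most 0.065 over all alternatives. The sum of the 5 models was at -0.0013 with RLE factors and with DESeq2, -0.0091 with a stricter filter and -0.011 to 0.034 with 1 library left out. The difference in log2 ratio was -0.27 to 0.0026 in counts and -0.26 to -0.0031 in TPM with 1 library left out, above 0 in counts only without replicate 1 labelled Dnmt3a+/-. Over 16 alternatives the correlation of the pair ran from -0.56 to -0.16 (exact permutation p from 0.155 to 0.727). Leaving out mitochondrially encoded genes put the mean share at 4.09% of counts for Ctla2a and 0.352% for Ctla2b, and as shares of TPM they were 6.42% and 0.449%. With 1 library left out, the shares were 3.28% to 3.36% and 0.274% to 0.294%.

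Over all genes, 250 were called without a filter (246 lower), 9 with DESeq2, 1 with the robust fit, and 0 to 135 with 1 library left out, where 135 came without WT replicate 1 (134 lower) and 1 without replicate 2 labelled Dnmt3a+/-. In the protease and inhibitor lists 2 genes were called without a filter and 0 to 2 with 1 library left out, the 2 without WT replicate 1 being Serpinf2 and Serpina1a, both lower; the cause was not tested. Same-numbered libraries correlated at 0.142, 0.129, 0.0914 and -0.0475 over genes, so the numbers were not taken as pairs. With a replicate block 0 genes were called, and the log2 fold change was -0.01 for Ctla2a (edgeR adjusted p = 0.989) and 0.11 for Ctla2b (edgeR adjusted p = 0.902). Depth gave these genes a counting error far below the spread between mice, while the division of reads among overlapping gene models was not tested.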
